A study of Mus musculus with 12 samples.

Results

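The multidomain members of the BCL2 family were described here across 6 groups of mouse retina. The genes were found by an exact match of their symbols to the gene names in the gene table, which returned all 7 of them (Bax, Bak1, Bok, Bcl2, Bcl2l1, Bcl2l2 and Mcl1) among 55487 listed genes. The transcript table listed 33 isoforms of these genes among 142699 transcripts, of which 6 belonged to Bax, 2 to Bcl2 and 9 to Bcl2l1. All 7 genes passed the filter on low values, which kept the 16471 genes whose mean exceeded 1 FPKM in any of the 6 groups.

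BCL2 family proteins decide whether the outer mitochondrial membrane is opened during apoptosis. BAX and BAK1 are the effectors that form pores through which cytochrome c leaves the mitochondrion, and BOK is a related protein that is found largely at the endoplasmic reticulum. BCL2, BCL-XL (from Bcl2l1), BCL-W (from Bcl2l2) and MCL1 are the guardians, which hold effectors and their BH3-only activators in check. In the retina, BAX is known to be needed for the death of retinal ganglion cells (RGCs) after injury to their axons, and BCL-XL is the guardian most closely tied to the survival of mature neurons.

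Excitotoxic injury was produced by intravitreal injection of 1 μL of 40 mM NMDA (40 nmol), an agonist of a class of glutamate receptors, and PBS was the control. Each treatment was given to wild-type C57BL/6J mice (WT), to mice whose retinas carried a Pax6 short hairpin RNA under the U6 promoter delivered by AAV2.7m8 with GFP (shPax6), and to Jnk3-/- mice (JNK3 KO), which gave 6 groups of 2 libraries. By the text of the study, the shPax6 vector was injected at 2 months of age and WT mice are described as adult. The age of the JNK3 KO mice and the time from NMDA or PBS injection to collection are not given in the sources used here. Each library was made from poly(A) RNA of more than 3 pooled retinas and read as pairs of 101 bases. No library of retinas with the scrambled hairpin vector is among the 12, so effects of infection and of Pax6 knockdown cannot be told apart in shPax6 retinas. The study calls its RNA-seq replicates biological, but how animals were divided between the 2 libraries of a group is not given in the sources used here. The p-values therefore measure the spread between these libraries.

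Values are FPKM, fragment counts scaled to transcript length and to the mapped fragments of the library, and differences are given on the log2(FPKM + 0.1) scale. Differences were tested with limma over all 16471 genes in 1 model of the 6 groups, and genes with an adjusted p (Benjamini-Hochberg) under 0.05 were called. The 2 WT NMDA libraries stood apart from the other 10. Their FPKM summed to 805627 and 820180 against 541210 to 576922 elsewhere, and the median WT response ran from 1.03 for genes with spliced lengths under 1 kb to -1.17 for those over 4 kb on the log2 scale. The corresponding medians were 0.18 and -0.07 in shPax6 and -0.11 and 0.16 in JNK3 KO. The 7 members span these lengths, from 904 bases for Bax to 7074 for Bcl2. The values were therefore also taken as TPM (FPKM rescaled to the same sum in every library) and after subtraction of the trend with length in each library. Values with no scale named are as deposited. Whether the libraries of compared groups overlap is given as a description without a test. How often other genes lack such overlap was not counted, so it does not show a difference by itself. TPM moved the median WT response of all genes by -0.56, and the length correction moved it by 0.10.

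The targeted genes were checked first. The FPKM of Pax6 was 173 and 177 for WT PBS against 94.6 and 92.8 for shPax6 PBS, and that of Mapk10, which encodes JNK3, was 42.8 and 50.7 for WT PBS against 9.47 and 8.75 for JNK3 KO PBS. Under PBS both were lower in the libraries labelled as targeted, by 0.90 for Pax6 and by 2.34 for Mapk10 on the log2 scale (limma, adjusted p = 6.04e-05 and 0.0215). Mapk10 stood at 20.9 and 21.3 FPKM in shPax6 PBS as well, a log2 difference of -1.14 from WT PBS that was not called (limma, adjusted p = 0.0634). Both targets also fell after NMDA in WT, Pax6 to 55.4 and 53.8 FPKM and Mapk10 to 8.98 and 6.00. Pax6 fell after NMDA in shPax6 to 67.5 and 58.7 FPKM (adjusted p = 0.000316) and in JNK3 KO (adjusted p = 0.00247). With NMDA neither target was lower than in WT, since Pax6 in shPax6 lay above both WT NMDA libraries and Mapk10 in JNK3 KO, at 6.65 and 13.8 FPKM, overlapped with them.

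Among the members, Bax rose the most after NMDA in WT as deposited, 3.08-fold. Bcl2 fell to 0.513 and Bcl2l2 to 0.566 of the PBS level, and the fall of Bcl2 did not hold after length correction. In shPax6 retinas Mcl1 and Bak1 rose, Bcl2l2 fell and Bax rose 1.34-fold, a call lost in 17 of 23 alternative analyses. In JNK3 KO retinas no member was called after NMDA. The plot of FPKM by library shows these patterns.

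**Figure D1:**
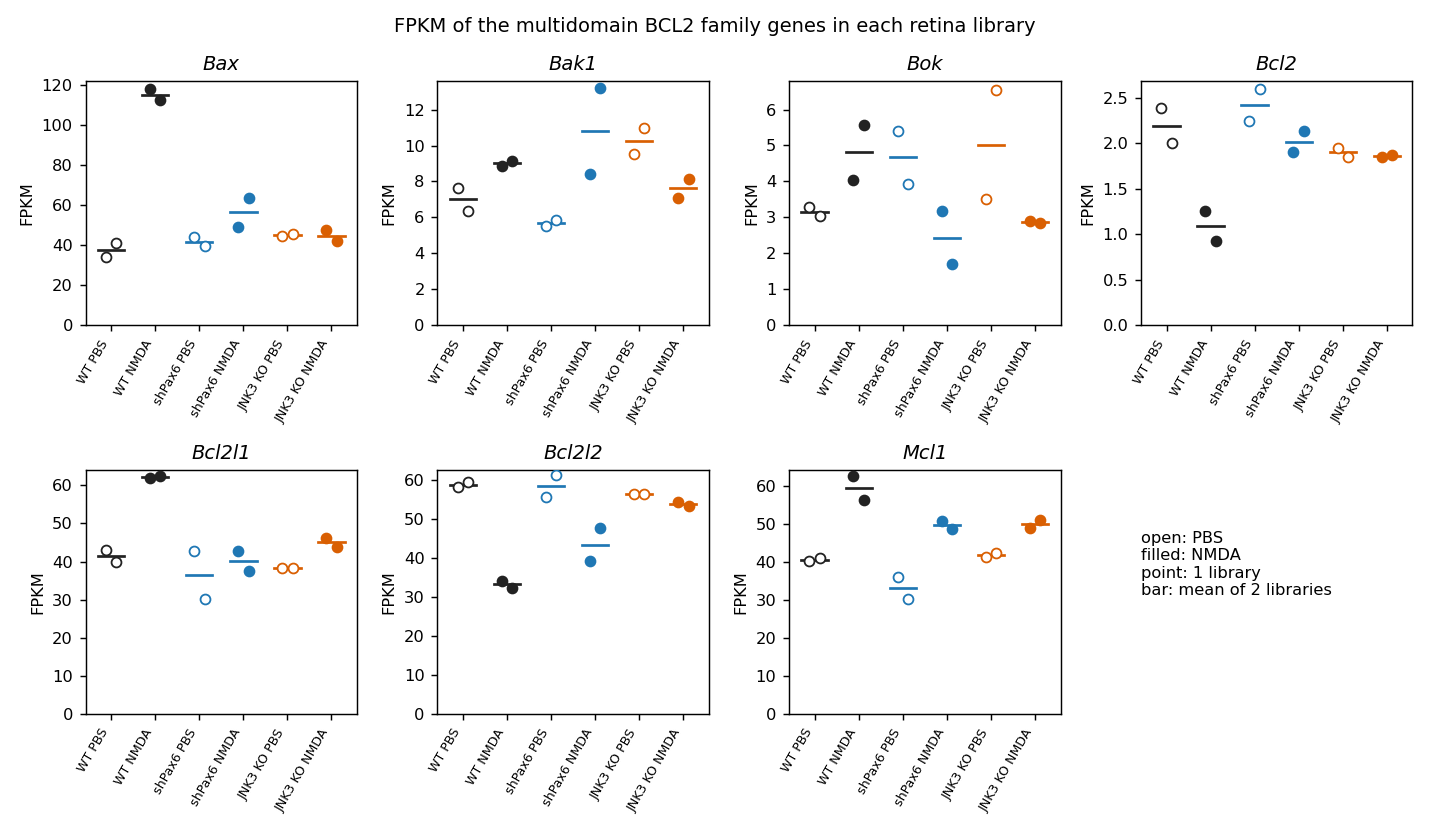
FPKM (y axis, linear from 0) of each gene in the 12 libraries, grouped along the x axis, with open points for PBS, filled points for NMDA and a bar at the mean of 2 libraries. Both WT NMDA libraries lie above 112 FPKM for Bax, and no other library exceeds 63.7.

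In WT, 3 members rose (Bax, Bcl2l1 and Mcl1) and 2 fell (Bcl2 and Bcl2l2) after NMDA, where 26% of all genes tested rose and 33.8% fell. The median of the 7 members was 0.55 and that of all genes -0.09 on the log2 scale. In shPax6, 3 rose (Bax, Bak1 and Mcl1) and 1 fell (Bcl2l2), beside 19.1% and 11% of all genes, with medians of 0.16 for members and 0.10 for all genes. In JNK3 KO, 0 of 7 were called in either direction by limma, and 1 (Mcl1) had an unadjusted p under 0.05, where 4.33% of all genes rose and 6.1% fell. RNA came from whole retina, so fewer cells of a type and less RNA per cell cannot be told apart in any of these values.

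Bax (ENSMUSG00000003873) lies on the minus strand of chr7:45461697-45466898 (GRCm38). Its FPKM was 34.0 and 41.1 in WT PBS and 118 and 113 in WT NMDA. In shPax6 it was 43.9 and 39.5 with PBS and 49.0 and 63.7 with NMDA, and in JNK3 KO 44.6 and 45.3 with PBS and 47.4 and 41.8 with NMDA. The WT NMDA libraries were far above all others, the shPax6 groups did not overlap, and the JNK3 KO groups did. Ordered by mean, WT PBS, shPax6 PBS, JNK3 KO NMDA and JNK3 KO PBS overlapped with their neighbours, whereas shPax6 NMDA stood above them and WT NMDA above all.

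The mean Bax level went from 37.5 ± 5.01 to 115 ± 3.63 FPKM in WT (SD, n = 2), a log2 difference of 1.62 (SE 0.13, adjusted p = 7.07e-06). The rise held in all 23 alternatives, down to 1.05 as TPM (adjusted p = 9.00e-05) and 0.58 after length correction (adjusted p = 0.00398). In shPax6 the log2 difference was 0.42 (SE 0.13, adjusted p = 0.0404). The latter call was lost in 17 of 23 alternatives, among them the replicate block (adjusted p = 0.0534) and the fit without shPax6 NMDA replicate 2, which gave 0.24 (adjusted p = 0.213). In JNK3 KO the difference was -0.01 with a 95% confidence interval from -0.32 to 0.29 (adjusted p = 0.983), and its sign turned under TPM, quantile normalization and length correction.

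The RefSeq promoter window of Bax is shown because its transcript start falls on the same base as that of Bax-201, the isoform with most of the signal. It spans 250 bases before to 50 bases after the start, chr7:45466849-45467148 (GRCm38.p6, minus strand, printed 5′ to 3′ along the gene). Capitals mark GGGCGG, searched on both strands so that CCGCCC is a match on the other strand, and the single first base of the transcript.
Bax: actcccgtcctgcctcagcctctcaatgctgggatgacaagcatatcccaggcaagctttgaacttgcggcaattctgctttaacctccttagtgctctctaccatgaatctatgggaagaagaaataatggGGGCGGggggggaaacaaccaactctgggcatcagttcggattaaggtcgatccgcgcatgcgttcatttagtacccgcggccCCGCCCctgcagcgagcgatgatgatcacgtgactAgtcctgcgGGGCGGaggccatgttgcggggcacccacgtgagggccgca
The 3 matches lie 118 and 35 bases before and 10 bases after the start. GGGCGG, the core of the GC box, was present in 35.66% of 32851 RefSeq windows of this length. The window held no TATA box letters (TATAAA, present in 13.62% of all windows), no CAAT box letters (CCAAT, in 37.41%) and no AP-1 site letters (TGANTCA, in 7.81%), on either strand. A gene model, Gm45808, overlaps Bax on the same strand and stood at 0 to 2.08 FPKM.

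Bak1 (ENSMUSG00000057789, chr17:27019810-27029009, minus strand) encodes the effector that resides at the outer mitochondrial membrane in healthy cells. Its FPKM was 7.66 and 6.37 in WT PBS, 8.89 and 9.14 in WT NMDA, 5.50 and 5.83 in shPax6 PBS and 8.43 and 13.2 in shPax6 NMDA. In JNK3 KO it was 9.52 and 10.97 with PBS and 7.09 and 8.13 with NMDA. The 2 treatments did not overlap in any genotype, with NMDA higher in WT and shPax6 and lower in JNK3 KO. Only the shPax6 difference passed the test, 0.89 on the log2 scale (SE 0.21, adjusted p = 0.0105). It was lost with the spread of the 2 compared groups alone (adjusted p = 0.179) and without shPax6 PBS replicate 1 (0.85, adjusted p = 0.0559), and it was 0.57 and still called without shPax6 NMDA replicate 2. The WT difference was 0.36 (95% confidence interval -0.10 to 0.83, adjusted p = 0.158) and turned to -0.20 as TPM. It was called with quantile normalization (0.68, adjusted p = 0.0211) and without shPax6 NMDA replicate 1 or 2 (adjusted p = 0.0458 and 0.0469). The JNK3 KO difference was -0.42 (-0.89 to 0.04, adjusted p = 0.253). Ggnbp1 overlaps Bak1 on the opposite strand, and whether reads were counted by strand is not given in the sources used here.

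Bok (ENSMUSG00000026278, chr1:93685660-93695764, plus strand) was low and variable. It stood at 3.29 and 3.03 FPKM in WT PBS and 4.05 and 5.57 in WT NMDA, at 5.41 and 3.94 in shPax6 PBS and 3.17 and 1.69 in shPax6 NMDA, and at 3.50 and 6.55 in JNK3 KO PBS and 2.91 and 2.83 in JNK3 KO NMDA. NMDA libraries were the higher ones in WT and the lower ones in the other genotypes, without overlap. None of the log2 differences passed the test: 0.57 in WT (-0.25 to 1.40, adjusted p = 0.204), -0.96 in shPax6 (-1.79 to -0.14, adjusted p = 0.0757) and -0.72 in JNK3 KO (-1.54 to 0.10, adjusted p = 0.271). The WT difference was 0.02 as TPM, turned to -0.05 after length correction and was called with quantile normalization (1.00, adjusted p = 0.0385). The shPax6 difference was called with quantile normalization and after length correction (-1.19 in both, adjusted p = 0.0344 and 0.0401) and without shPax6 NMDA replicate 1 (-1.40, adjusted p = 0.0422).

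Among the guardians, Bcl2l2 (ENSMUSG00000089682, chr14:54883377-54888234, plus strand), which encodes BCL-W, was the most abundant in every PBS library. Its FPKM was 58.0 and 59.3 in WT PBS and 34.1 and 32.2 in WT NMDA. In shPax6 it was 55.6 and 61.1 with PBS and 39.2 and 47.6 with NMDA, and in JNK3 KO 56.4 and 56.3 with PBS and 54.3 and 53.1 with NMDA. NMDA libraries were below PBS libraries in each genotype. The shPax6 PBS libraries spanned those of the other genotypes, and both JNK3 KO PBS libraries lay below both WT PBS libraries. Bcl2l2 fell by 0.82 on the log2 scale in WT (SE 0.09, adjusted p = 4.99e-05) and by 0.43 in shPax6 (SE 0.09, adjusted p = 0.00709). The WT fall held in all 23 alternatives, between -1.40 as TPM and -0.26 after length correction (adjusted p = 0.0435). In shPax6 the call was lost only with the spread of the compared groups alone (adjusted p = 0.16). The JNK3 KO difference was -0.07 (-0.28 to 0.14, adjusted p = 0.731). Gm20521, which overlaps Bcl2l2 on the same strand, was listed at 0 in every library.

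Mcl1 (ENSMUSG00000038612, chr3:95658788-95663176, plus strand), a guardian whose protein turns over quickly, was higher with NMDA in every genotype. Its FPKM was 40.2 and 40.9 in WT PBS and 62.7 and 56.4 in WT NMDA, 36.1 and 30.3 in shPax6 PBS and 50.9 and 48.7 in shPax6 NMDA, and 41.4 and 42.3 in JNK3 KO PBS and 48.8 and 51.1 in JNK3 KO NMDA. The treatments did not overlap in any genotype. Mcl1 rose by 0.59 in shPax6 on the log2 scale (SE 0.09, adjusted p = 0.00129), and the call was lost only with the spread of the compared groups alone (adjusted p = 0.0868). In WT it rose by 0.55 (SE 0.09, adjusted p = 0.000594), but the difference was -0.02 as TPM (adjusted p = 0.86), 0.20 with quantile normalization (adjusted p = 0.0735) and 1.13 after length correction (adjusted p = 1.35e-05). In JNK3 KO the difference was 0.26 (0.05 to 0.46, adjusted p = 0.116), and it passed without either shPax6 PBS library (adjusted p = 0.0462 in both fits), which changes the shared estimate of the spread.

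Bcl2l1 (ENSMUSG00000007659, chr2:152780668-152831728, minus strand) rose in WT and was not called in the other genotypes. Its FPKM was 43.1 and 39.9 in WT PBS and 62.0 and 62.5 in WT NMDA, 42.8 and 30.3 in shPax6 PBS and 42.8 and 37.6 in shPax6 NMDA, and 38.4 and 38.4 in JNK3 KO PBS and 46.2 and 43.9 in JNK3 KO NMDA. The shPax6 groups overlapped, and the JNK3 KO groups did not. The WT rise was 0.59 on the log2 scale (SE 0.14, adjusted p = 0.00528), the same size after length correction (0.59, adjusted p = 0.00643), 0.22 with quantile normalization (adjusted p = 0.21) and 0.01 as TPM (adjusted p = 0.959). In shPax6 the difference was 0.16 (-0.16 to 0.47, adjusted p = 0.436), and without shPax6 PBS replicate 1 it was 0.41 (adjusted p = 0.017). In JNK3 KO it was 0.23 (-0.09 to 0.55, adjusted p = 0.366).

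Bcl2 (ENSMUSG00000057329, chr1:106538178-106714274, minus strand), the founding guardian of the family, was the least abundant member in every group. It stood at 2.39 and 2.00 FPKM in WT PBS, 1.25 and 0.92 in WT NMDA, 2.25 and 2.60 in shPax6 PBS, 1.90 and 2.13 in shPax6 NMDA, 1.95 and 1.85 in JNK3 KO PBS and 1.85 and 1.87 in JNK3 KO NMDA. Both WT NMDA libraries lay below all others, the shPax6 NMDA libraries lay below the shPax6 PBS libraries, and the JNK3 KO groups overlapped. Bcl2 fell by 0.96 on the log2 scale in WT (SE 0.24, adjusted p = 0.00726), but the difference was 0.43 after length correction (adjusted p = 0.183) and -0.61 after quantile normalization (adjusted p = 0.0617). Bcl2 has the longest spliced length of the members. The differences in shPax6 and JNK3 KO were -0.25 (-0.81 to 0.30, adjusted p = 0.473) and -0.03 (-0.58 to 0.52, adjusted p = 0.98). D630008O14Rik overlaps Bcl2 on the opposite strand, and Mir3473f and Gm37053 on the same strand.

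**Figure D2:**
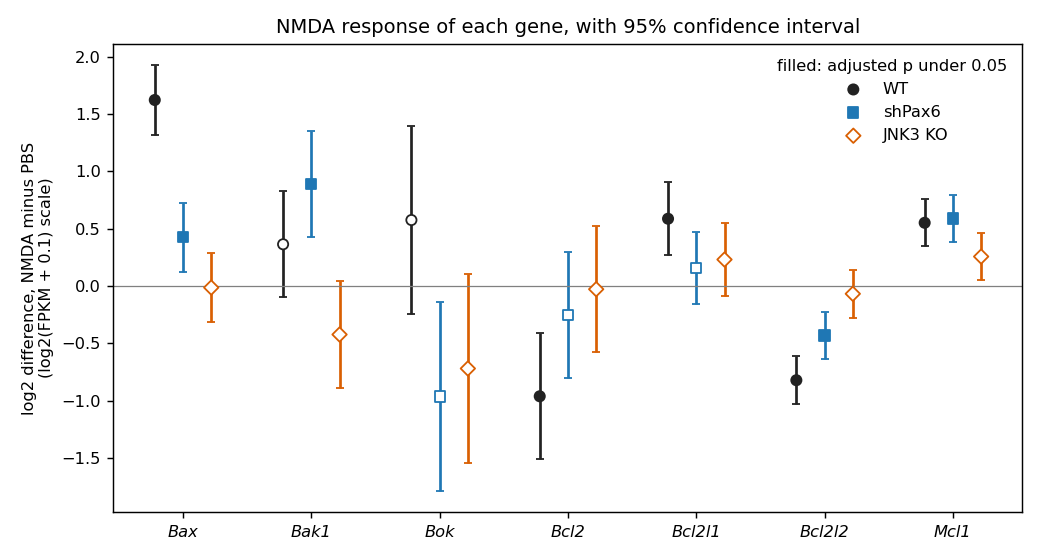
Log2 difference between NMDA and PBS on the log2(FPKM + 0.1) scale (y axis) for each gene (x axis) in WT, shPax6 and JNK3 KO, with 95% confidence intervals and filled symbols at an adjusted p under 0.05. The Bax value is 1.62 in WT, 0.42 in shPax6 and -0.01 in JNK3 KO, on FPKM as deposited.

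The size and, for some genes, the sign of the WT values changed with the scale. As deposited, the members ran from 1.62 (Bax) to -0.96 (Bcl2) on the log2 scale. After length correction, Mcl1 had the highest value (1.13), and Bax (0.58) and Bcl2l1 (0.59) had about the same one. The shPax6 and JNK3 KO values moved less. For Bax in shPax6 the 3 scales gave 0.42, 0.37 and 0.17, and for Mcl1 0.59, 0.54 and 0.51.

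**Figure D3:**
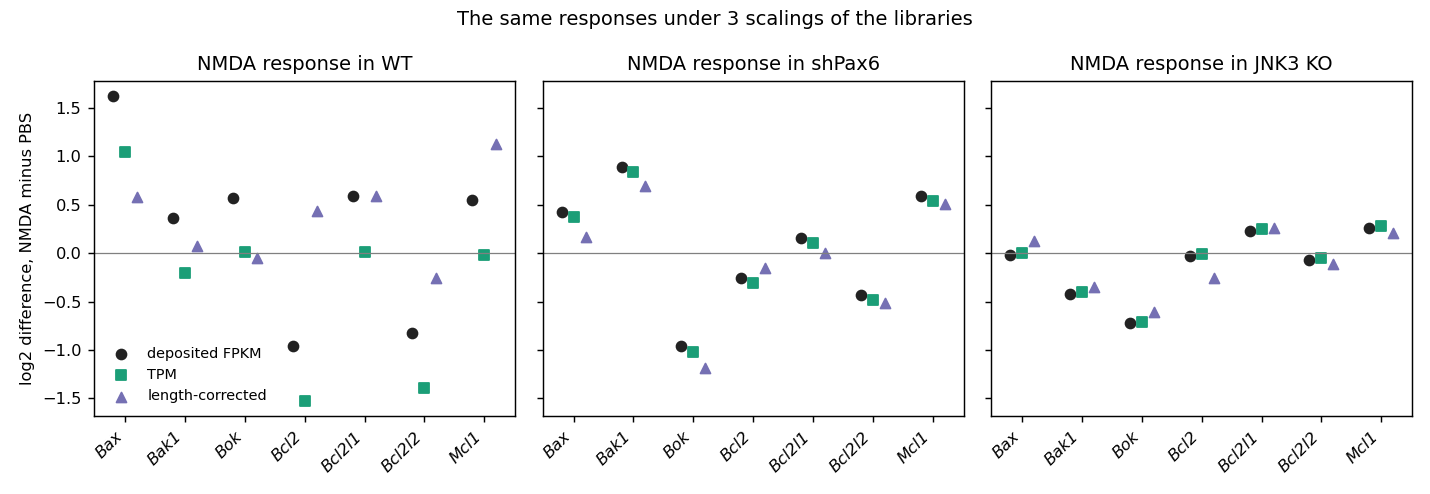
Log2 difference between NMDA and PBS (y axis) of each gene (x axis) in WT, shPax6 and JNK3 KO from deposited FPKM (circles), TPM (squares) and length-corrected values (triangles). In WT, Bcl2 is at -0.96, -1.53 and 0.43 on the 3 scales, and Mcl1 at 0.55, -0.02 and 1.13.

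Whether the NMDA response differed between genotypes was tested as the WT response minus that of shPax6 or JNK3 KO. Both contrasts use the same 4 WT libraries, so they are not independent of each other or of the WT response. Against shPax6, 2 members had a higher response in WT (Bax and Bok) and 1 a lower one (Bcl2l2), beside 18.3% and 31.4% of all genes. Against JNK3 KO, 2 were higher in WT (Bax and Bak1) and 2 lower (Bcl2 and Bcl2l2), beside 23.5% and 27.9%.

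For Bax the response was 1.20 larger in WT than in shPax6 on the log2 scale (SE 0.19, adjusted p = 0.000788) and 1.64 larger than in JNK3 KO (SE 0.19, adjusted p = 9.30e-05). As TPM the differences were 0.67 (adjusted p = 0.0129) and 1.04 (adjusted p = 0.00117). After length correction they were 0.42 (adjusted p = 0.091) and 0.46 (adjusted p = 0.0718), which did not pass. These were the only alternatives of the 23 in which either call was lost.

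For Bcl2l2 the fall was 0.75 larger in WT than in JNK3 KO (difference -0.75, SE 0.13, adjusted p = 0.00107), and the call was lost only after length correction (-0.14, adjusted p = 0.431). Against shPax6 the difference was -0.39 (SE 0.13, adjusted p = 0.0332), lost in 12 alternatives and turned to 0.26 by length correction. The remaining calls were close to the threshold. Bok against shPax6 was 1.54 (SE 0.51, adjusted p = 0.0332) and lost in 11 of 23 alternatives, Bak1 against JNK3 KO was 0.79 (SE 0.29, adjusted p = 0.047) and lost in 15, and Bcl2 against JNK3 KO was -0.93 (SE 0.34, adjusted p = 0.0471), lost in 11 and turned to 0.69 by length correction.

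The Mcl1 and Bcl2l1 responses were not called as different from WT in the model of 6 groups, whereas some alternatives called them. For Mcl1 the differences were -0.04 against shPax6 (-0.33 to 0.25, adjusted p = 0.831) and 0.29 against JNK3 KO (0.0042 to 0.58, adjusted p = 0.0842). After length correction they were 0.63 (adjusted p = 0.00457) and 0.92 (adjusted p = 0.000594), and as TPM -0.56 (adjusted p = 0.00479) and -0.30 (adjusted p = 0.0768), so the sign depends on the scale. Against JNK3 KO it was called on deposited FPKM with the spread of the compared groups alone (adjusted p = 0.0259) and without either shPax6 PBS library (adjusted p = 0.0293 in both fits). For Bcl2l1 they were 0.43 (-0.02 to 0.88, adjusted p = 0.102) and 0.36 (-0.09 to 0.80, adjusted p = 0.166), with -0.09 and -0.24 as TPM, and the first was 0.59 after length correction (adjusted p = 0.0399) and 0.68 without shPax6 PBS replicate 2 (adjusted p = 0.00272). The second was called with the groups alone (adjusted p = 0.00647) and without shPax6 PBS replicate 1 or 2 (adjusted p = 0.0235 and 0.0234).

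Under PBS, limma called 0 of 7 between shPax6 and WT, where 5.36% of all genes were higher and 11.2% lower in shPax6. It also called 0 of 7 between JNK3 KO and WT, where 1.1% were higher and 0.407% lower in JNK3 KO. In each of these comparisons 1 member had an unadjusted p under 0.05. Mcl1 was -0.29 in shPax6 against WT (95% confidence interval -0.50 to -0.09, adjusted p = 0.0583), which passed as TPM (-0.32, adjusted p = 0.0414) and without shPax6 PBS replicate 1 (-0.42, adjusted p = 0.0166). Bcl2l1 was -0.20 in shPax6 against WT (adjusted p = 0.381) and was called without shPax6 PBS replicate 1 (-0.45, adjusted p = 0.0209). Bak1 was 0.54 in JNK3 KO against WT (0.08 to 1.01, adjusted p = 0.249), with no overlap between the libraries. Bok was 0.53 in shPax6 and 0.59 in JNK3 KO against WT, with wide intervals that included 0 (-0.29 to 1.36 and -0.23 to 1.41, adjusted p = 0.375 and 0.519).

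The composition of the family was described within each library, with no test. Ratios of 2 genes in 1 library do not change with a factor applied to the whole library, but they do carry the trend with length. Bax held 18.0% and 21.3% of the summed FPKM of the 7 genes in WT PBS and 40.5% and 40.3% in WT NMDA. In shPax6 its share was 22.9% and 22.8% with PBS and 25.1% and 29.7% with NMDA, and in JNK3 KO 22.8% and 22.5% with PBS and 22.7% and 20.6% with NMDA. Bax was thus the most abundant of the 7 genes, per length, in both WT NMDA libraries, where Bcl2l2 had been in WT PBS.

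Bcl2l2 moved the other way. Its share was 30.8% in both WT PBS libraries and 11.7% and 11.5% in WT NMDA, 29.0% and 35.2% in shPax6 PBS and 20.0% and 22.2% in shPax6 NMDA, and 28.8% and 27.9% in JNK3 KO PBS and 26.0% and 26.2% in JNK3 KO NMDA. The shares of Bcl2l1 and Mcl1 stayed between 17.4% and 26.1% in every library. The summed FPKM of the effectors, with Bok counted among them, divided by that of the guardians was 0.313 and 0.355 in WT PBS and 0.817 and 0.838 in WT NMDA. It was 0.401 and 0.396 in shPax6 PBS against 0.45 and 0.578 in shPax6 NMDA, and 0.418 and 0.453 in JNK3 KO PBS against 0.38 and 0.352 in JNK3 KO NMDA. The ratio was thus higher with NMDA in WT and shPax6 and lower in JNK3 KO, without overlap in any genotype.

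**Figure D4:**
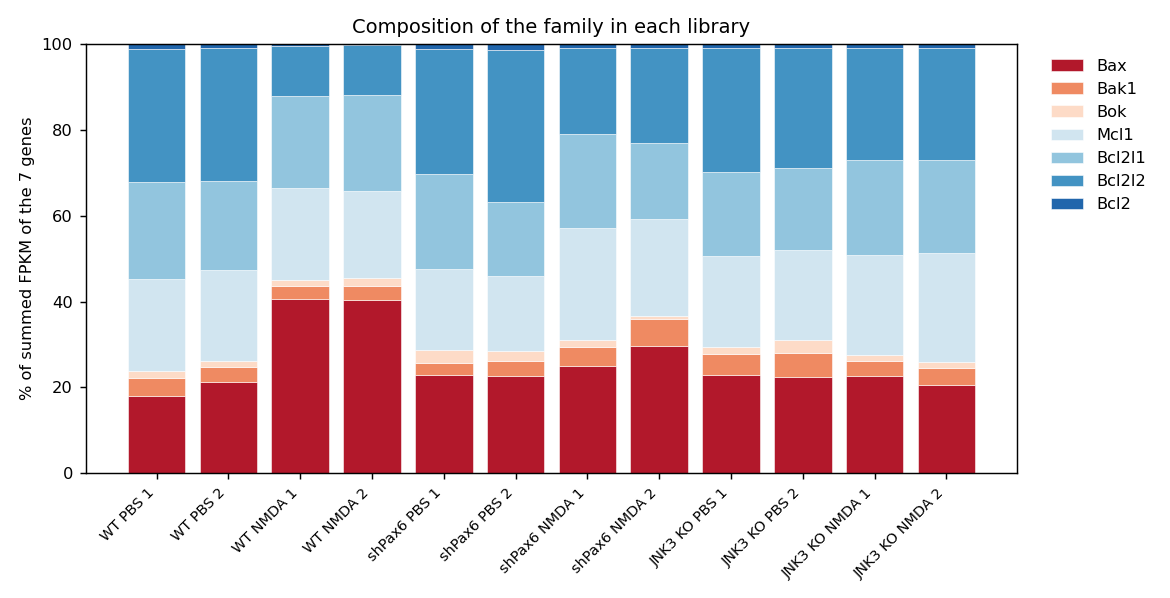
Share of the summed FPKM of the 7 genes (y axis, percent) in each of the 12 libraries (x axis), with effectors and Bok in red tones and guardians in blue tones. Bax takes 40.5% and 40.3% in the WT NMDA libraries and 18.0% to 29.7% in the other 10.

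The isoforms of Bax, Bcl2 and Bcl2l1 were then followed in the transcript table, where 13 of 17 passed the filter on low values. In WT, 3 rose after NMDA (Bax-201, Bax-203 and Bcl2l1-201) and 3 fell (Bcl2l1-203, Bcl2l1-208 and Bcl2-201), beside 11.7% and 23.5% of 49940 transcripts. In shPax6, 1 rose (Bax-201) and 0 fell, beside 4.71% and 3.63%. For the differences between responses, 2 isoforms were higher in WT than in shPax6 and 0 lower, beside 7.15% and 16.7%, and 3 were higher in WT than in JNK3 KO and 1 lower, beside 9.05% and 16.6%. In JNK3 KO, limma called 0 in either direction and 0 had an unadjusted p under 0.05, beside 0.537% and 0.775%. Isoform levels are estimates that divide shared reads among overlapping models, so they are less certain than the gene values.

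Bax-201 (867 bases spliced, 576 coding) held 49.2% to 79.8% of Bax FPKM in each library. It stood at 20.2 and 30.6 FPKM in WT PBS and 79.2 and 89.9 in WT NMDA, at 21.6 and 24.7 in shPax6 PBS and 36.0 and 45.7 in shPax6 NMDA, and at 31.5 and 30.1 in JNK3 KO PBS and 33.2 and 29.6 in JNK3 KO NMDA. It was therefore higher with NMDA in WT and shPax6 without overlap, and overlapping in JNK3 KO. The log2 difference was 1.76 in WT (SE 0.20, adjusted p = 0.000277), called in all 16 alternatives, and 0.81 in shPax6 (SE 0.20, adjusted p = 0.0451), lost in 11 of them. The WT response exceeded that of shPax6 by 0.95 (SE 0.28, adjusted p = 0.0423, lost in 11 of 16) and that of JNK3 KO by 1.74 (SE 0.28, adjusted p = 0.00282, called in all 16).

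Bax-203 (1100 bases spliced) starts 67 bases downstream of Bax-201 and shares 3 of its exons. It stood at 10.3 and 8.54 FPKM in WT PBS and 27.9 and 17.7 in WT NMDA, and at 8.08 to 15.1 in the other 8 libraries. Its WT difference was 1.24 (SE 0.28, adjusted p = 0.0108) and that against JNK3 KO 1.32 (SE 0.40, adjusted p = 0.0452), lost in 3 and 13 of 16 alternatives. With the replicate block the latter had an adjusted p of 0.0523. Bax-205, Bax-206 and Bax-202 reached 9.91, 3.49 and 9.04 FPKM at most, the last in 1 library and 0 in the other 11. Bcl2-201, the full-length transcript of Bcl2 (7191 bases spliced), carried 84.8% to 100% of its FPKM and fell by 1.11 in WT (SE 0.32, adjusted p = 0.0289), which turned to 0.59 after length correction.

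The isoforms of Bcl2l1 had other patterns than the gene total. Bcl2l1-201 and Bcl2l1-202 encode the same 699-base reading frame, that of BCL-XL, and differ in their first exons, which start 1062 bases apart. Bcl2l1-201 starts at chr2:152831728 and Bcl2l1-202 at chr2:152830666, both on the minus strand. Their RefSeq promoter windows are shown because the isoform results are given for these 2 starts. The upstream window lies at chr2:152831679-152831978 and its RefSeq start is the same base as that of Bcl2l1-201. The downstream window lies at chr2:152830668-152830967, with a RefSeq start 51 bases upstream of Bcl2l1-202. Both are on GRCm38.p6, printed 5′ to 3′ along the gene, and the capital marks the first base of the RefSeq transcript.
Bcl2l1 start of Bcl2l1-201: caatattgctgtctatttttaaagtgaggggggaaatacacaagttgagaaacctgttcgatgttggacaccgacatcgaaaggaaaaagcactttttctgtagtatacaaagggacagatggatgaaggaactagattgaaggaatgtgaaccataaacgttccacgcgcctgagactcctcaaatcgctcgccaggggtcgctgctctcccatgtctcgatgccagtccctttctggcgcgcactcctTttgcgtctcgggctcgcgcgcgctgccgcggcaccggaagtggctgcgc
Bcl2l1 start near Bcl2l1-202: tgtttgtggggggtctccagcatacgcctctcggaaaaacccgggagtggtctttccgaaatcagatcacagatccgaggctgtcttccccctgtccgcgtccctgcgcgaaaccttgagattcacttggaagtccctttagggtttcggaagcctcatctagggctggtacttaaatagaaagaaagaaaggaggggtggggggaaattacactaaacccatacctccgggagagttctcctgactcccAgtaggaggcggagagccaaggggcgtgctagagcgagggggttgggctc
Neither window contained any of the 4 motifs named for Bax on either strand. The first holds 22 CpG dinucleotides at 52.3% G + C, and the second 14 at 55.7%.

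Bcl2l1-201 stood at 28.3 and 29.8 FPKM in WT PBS and 58.5 and 56.1 in WT NMDA. In shPax6 it was 27.5 and 20.7 with PBS and 19.2 and 14.1 with NMDA, and in JNK3 KO 28.1 and 28.4 with PBS and 24.6 and 24.4 with NMDA. NMDA libraries were above PBS libraries in WT and below them in the other genotypes, without overlap. The log2 differences were 0.98 in WT (SE 0.17, adjusted p = 0.00243), -0.53 in shPax6 (SE 0.17, 95% confidence interval -0.91 to -0.15, adjusted p = 0.101) and -0.21 in JNK3 KO (SE 0.17, -0.59 to 0.17, adjusted p = 0.845). The WT response exceeded that of shPax6 by 1.51 (SE 0.23, adjusted p = 0.0028), which was called in all 16 alternatives with a lowest value of 0.99 as TPM. It exceeded that of JNK3 KO by 1.19 (SE 0.23, adjusted p = 0.00736), lost only as TPM (0.60, adjusted p = 0.0965). The WT rise itself was 0.41 as TPM (adjusted p = 0.0876).

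Bcl2l1-202 had another pattern. It stood at 3.96 and 3.86 FPKM in WT PBS and 3.14 and 5.36 in WT NMDA, at 0 and 6.87 in shPax6 PBS and 16.2 and 17.6 in shPax6 NMDA, and at 3.30 and 5.07 in JNK3 KO PBS and 9.93 and 10.1 in JNK3 KO NMDA. NMDA libraries were above PBS libraries in shPax6 and JNK3 KO, and the WT groups overlapped. No difference passed the test, with adjusted p = 1 in WT, 0.15 in shPax6 and 0.956 in JNK3 KO. Without shPax6 PBS replicate 2, which leaves only the library listed at 0 as control, the shPax6 difference had an adjusted p of 0.00023, and no fold change is given against a value of 0.

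The isoforms Bcl2l1-203 and Bcl2l1-208 fell in WT. Their annotated coding sequences of 564 and 234 bases are identical to the first part of the 699-base BCL-XL frame and add no other bases. Bcl2l1-203, whose first exon overlaps that of Bcl2l1-202, stood at 4.44 and 2.53 FPKM in WT PBS, at 0.31 and 0.37 in WT NMDA and at 0.93 to 3.97 elsewhere, with a difference of -2.98 in WT (SE 0.66, adjusted p = 0.0089). Its WT response differed from that of JNK3 KO by -3.11 (SE 0.93, adjusted p = 0.0418), lost in 10 of 16 alternatives. Bcl2l1-208 stood at 1.74 and 3.60 FPKM in WT PBS and was listed at 0 in both WT NMDA libraries (adjusted p = 0.0326, lost in 9 of 16 alternatives).

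The isoforms were also summed by the place of their first exon, a grouping chosen after the values were seen and given without a test. The upstream starts (Bcl2l1-201 and Bcl2l1-208) held 69.7% and 83.8% of Bcl2l1 FPKM in WT PBS and 94.4% and 89.7% in WT NMDA. In shPax6 they held 72.1% and 68.3% with PBS and 44.8% and 37.5% with NMDA, and in JNK3 KO 80.5% and 80.6% with PBS and 55.1% and 57.5% with NMDA. The upstream share was higher with NMDA in WT and lower in both other genotypes, without overlap in any of them. The 6 isoforms with a start between chr2:152830310 and chr2:152831112 held 3.97 to 9.86 FPKM in the 6 PBS libraries, 3.45 and 6.46 in WT NMDA, 23.6 and 19.8 in shPax6 NMDA and 15.4 and 14.9 in JNK3 KO NMDA.

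**Figure D5:**
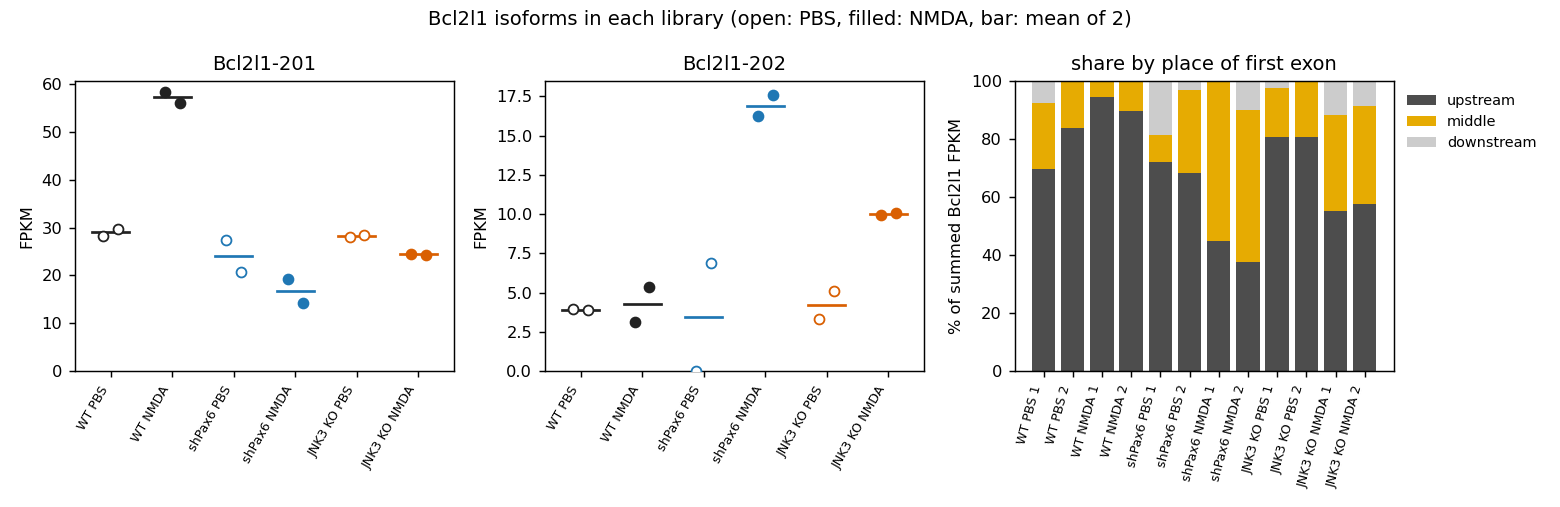
FPKM (y axis, linear from 0) of Bcl2l1-201 and Bcl2l1-202 by group, with open points for PBS, filled points for NMDA and bars at means of 2 libraries, and the percent of summed Bcl2l1 FPKM by place of the first exon in each library. The upstream share is 94.4% and 89.7% in WT NMDA and 37.5% to 57.5% in the NMDA libraries of the other genotypes.

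For Bak1, the transcript table divided the FPKM mainly among Bak1-201 and Bak1-204, models annotated for nonsense-mediated decay, at 3.11 to 7.20 and 0.43 to 5.10 FPKM, and Bak1-203, at 0 to 3.82. Bak1-202, whose coding sequence is 627 bases, was listed at 0 to 0.69 FPKM. Mcl1-201 carried all of the Mcl1 FPKM, and Bcl2l2-201 30.4 to 56.9 FPKM of the Bcl2l2 total. These isoforms were described by their values only.

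Other genes of the pathway were followed by lists, whose counts stand beside the shares of all genes given above (26% higher and 33.8% lower after NMDA in WT, 19.1% and 11% in shPax6, 4.33% and 6.1% in JNK3 KO) and whose medians stand beside -0.09, 0.10 and -0.01 for all genes. Of 9 other BCL2-like genes 7 were tested, with 3 higher and 1 lower after NMDA in WT, 4 higher and 0 lower in shPax6 and 0 called in JNK3 KO, and medians of 1.13, 1.68 and 0.19. Bcl2a1b, one of the A1 guardians expressed in blood cells, rose by 2.37 in WT and 2.69 in shPax6 on the log2 scale (adjusted p = 9.94e-06 and 2.19e-05), and Bcl2a1d by 1.75 in WT (adjusted p = 0.036). After length correction Bcl2a1b was at 1.25 in WT and 2.42 in shPax6, and Bcl2a1d at 0.67 in WT. Bcl2a1d also rose in shPax6 (adjusted p = 0.000763), from 0 and 0.43 FPKM to 5.74 and 4.2, levels at which the fold depends on the added 0.1. The A1 genes are near copies of each other, so their reads may be divided among them. Bcl2l13, a mitochondrial outer membrane protein of the family, fell by 1.12 in WT (adjusted p = 0.000492) with -0.47 after length correction, and was at -0.04 in shPax6 and 0.42 in JNK3 KO.

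BH3-only proteins are the sensors that engage guardians and effectors. Of 8 such genes 7 were tested, and 2 rose and 0 fell in WT, 6 rose and 0 fell in shPax6 and 0 were called in JNK3 KO, with medians of 0.14, 0.79 and -0.15. The share that rose in WT was near that of all genes. Bik rose by 1.56 in WT and 2.16 in shPax6 (adjusted p = 0.000637 and 0.000316). Its WT value was 1.03 as TPM and 0.55 after length correction, and its shPax6 value 2.13 and 1.90. Bad rose by 1.17 in WT (adjusted p = 0.000549), was at 0.19 there after length correction, and was at 0.19 in shPax6 and -0.15 in JNK3 KO (adjusted p = 0.484 and 0.715).

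Of 11 genes that act after permeabilization, 6 rose and 2 fell in WT, 3 rose and 2 fell in shPax6, and 1 rose and 1 fell in JNK3 KO, with medians of 0.49, 0.33 and 0.02. Apaf1, the scaffold of the apoptosome, rose by 1.47 in WT (adjusted p = 0.00139; 2.23 after length correction) and Aifm1, an intermembrane space flavoprotein, by 1.38 (adjusted p = 9.97e-05). The values of Apaf1 were 0.66 in shPax6 and 0.44 in JNK3 KO, and those of Aifm1 -0.10 and 0.02. Xiap, an inhibitor of caspases, fell by 2.12 in WT (adjusted p = 2.96e-08), with -0.95 after length correction, and by 0.75 in shPax6 (adjusted p = 3.04e-05) and rose by 0.33 in JNK3 KO (adjusted p = 0.0107).

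Of 11 partners at the outer membrane and the endoplasmic reticulum, 6 rose and 3 fell in WT, 3 rose and 0 fell in shPax6, and 0 rose and 6 fell in JNK3 KO, with medians of 0.20, 0.19 and -0.22. Bag1, a BCL2-binding co-chaperone, and Mtch2, an outer membrane insertase that binds BID, rose by 1.39 and 1.15 in WT, or 0.70 and 0.58 after length correction. Bnip3l and Bnip3, receptors for mitophagy, fell by 1.51 and 1.14 in WT, whereas both rose in shPax6, by 0.43 and 0.73 (adjusted p = 0.0298 and 0.000644). Of 6 genes of MCL1 turnover, 1 rose and 3 fell in WT, 0 were called in shPax6 and 1 (Usp9x, 0.55, adjusted p = 0.0245) rose in JNK3 KO, with medians of -0.38, -0.11 and 0.16. Huwe1, a ubiquitin ligase for MCL1, and Usp9x, a deubiquitinase for it, fell by 2.33 and 1.92 in WT, or by 0.68 and 0.52 after length correction. March5, a mitochondrial ubiquitin ligase, rose by 0.38 in WT (adjusted p = 0.000973), with 0.01 after length correction and the opposite sign, -0.20, as TPM.

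Markers of cell types also changed after NMDA in each genotype. Their counts stand beside 26% of all genes higher and 33.8% lower in WT, 19.1% and 11% in shPax6, and 4.33% and 6.1% in JNK3 KO. Marker values are as deposited, so those of WT NMDA carry the trend with transcript length. Retina was checked by its rods, whose 7 markers summed to 20341 to 35279 FPKM. Of 10 RGC markers 9 fell in WT, 8 in shPax6 and 7 in JNK3 KO after NMDA, with median log2 differences of -2.20, -2.55 and -1.97. Their sum went from 566 and 587 to 317 and 335 FPKM, from 168 in both to 48.8 and 55.5, and from 539 and 581 to 140 and 141, respectively. Thy1 went from 142 and 145 to 136 and 154 FPKM in WT but from 181 and 152 to 38.6 and 39.0 in JNK3 KO. Sncg went from 128 and 145 to 112 and 115.5 FPKM in WT but from 135 and 130 to 29.5 and 29.7 in JNK3 KO. The sums follow such abundant markers more than the medians do. All 8 amacrine markers fell in WT and in shPax6, and 3 did in JNK3 KO. Of 7 rod markers 3 rose and 2 fell in WT, 1 rose and 6 fell in shPax6 and 5 fell in JNK3 KO. All 6 cone markers fell in shPax6 and in JNK3 KO, with medians of -1.85 and -0.68, while 2 rose and 2 fell in WT. Of 6 bipolar markers 5 fell in WT, 2 rose and 1 fell in shPax6 and 2 rose in JNK3 KO. Of 6 Muller glia markers 2 rose and 4 fell in WT, and 3 rose and 1 fell in both other genotypes. Of 4 tested pigment epithelium markers 2 rose and 1 fell in WT, 3 fell in shPax6 and 1 rose in JNK3 KO. Rlbp1 is counted both there and among the Muller glia markers, and went from 64.0 and 63.2 to 108 and 115 FPKM in JNK3 KO. Of 8 microglia and macrophage markers, 4 rose and 3 fell in WT, 5 rose in shPax6 and 3 fell in JNK3 KO. Of 6 neutrophil markers 5 were tested, 4 rose in WT and in shPax6 and 3 fell in JNK3 KO, and their sum went from 206 and 229 to 1941 and 1980.2 FPKM in WT, from 4.89 and 5.87 to 63.7 and 71.0 in shPax6 and from 150 and 162 to 12.7 and 13.6 in JNK3 KO, with Ly6g and Mpo at 0 in shPax6 and in JNK3 KO NMDA. Of 6 lens markers 4 were tested, and 3 rose in WT, 2 rose and 2 fell in shPax6 and 2 rose in JNK3 KO. Their sum went from 72.5 and 73.4 to 150 and 154 FPKM in WT, from 48.1 and 54.4 to 78.0 and 84.3 in shPax6 and from 80.3 and 89.9 to 130 and 132 in JNK3 KO. Markers differed under PBS too, where 6 of 10 RGC, 4 of 8 amacrine, 4 of 6 bipolar and 4 of 5 tested neutrophil markers were lower in shPax6 than in WT. All 7 rod and all 6 cone markers were higher in shPax6 there, and 3 of 6 Muller glia markers were higher and 1 lower. Of all genes, 5.36% were higher and 11.2% lower in that comparison. The part of these changes and differences in the values of the 7 members was not tested.

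The genes whose pattern over the 12 libraries was most like that of a member were named by Pearson correlation among 13883 protein-coding genes, as a description. Ppp1ca (r = 0.99) and Tmem205 (r = 0.99) were closest to Bax, and Cnksr2 (r = 0.99) and Dlgap2 (r = 0.98) to Bcl2l2. Clic1 (r = 0.97) was among those closest to Mcl1. For Bcl2l1 they were Focad (r = 0.97) and Anapc15 (r = 0.96), and for Bcl2 Tnks1bp1 (r = 0.96) and Zfp109 (r = 0.96). Bak1 and Bok had no gene above r = 0.90, with Flt3l (r = 0.88) and Casp6 (r = 0.87) for Bak1 and Agr2 (r = 0.89) and Tigd3 (r = 0.86) for Bok. Among the members, Bax ran opposite to Bcl2l2 (r = -0.90) and Bcl2 (r = -0.88), and alongside Bcl2l1 (r = 0.79) and Mcl1 (r = 0.75). The points share their libraries and the WT NMDA libraries lie apart from the others. All these correlations are on deposited FPKM and so carry the trend with transcript length, with Bax the shortest and Bcl2 the longest member. They were not computed after length correction.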

How the data were processed

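Poly(A) RNA of whole mouse retina was measured in 12 libraries, 2 in each of 6 groups that were set by the sample labels. The authors aligned reads to GRCm38.p6 with STAR 2.7.1a, estimated expression with RSEM 1.3.3 and used edgeR 3.36.0 under R 4.1.0, per the submitters' processing notes. They deposited FPKM per gene and per transcript, with no counts used here, so the depth behind each value is unknown and no counting interval is given. Strand use in counting is not given in the sources used here.

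Log2(FPKM + 0.1) was fitted with limma 3.58.1 (R 4.3.3, empirical Bayes with an intensity trend) for features with a mean above 1 FPKM in at least 1 group, as 6 group means with 6 residual degrees of freedom. Tests were two-sided, and Benjamini-Hochberg adjustment ran over all 16471 genes or 49940 transcripts. There were 7 contrasts of genes and 5 of transcripts. Alternatives were other pseudocounts and filters, TPM, 75th percentile scaling, quantile normalization, a length correction (a lowess curve with a span of 0.3), the spread of the compared groups alone, no intensity trend, a replicate block, each library left out and a fold limit. In simulated data for the WT response, 47% of 200 genes changed by 1 on the log2 scale were called and 79% of those changed by 2, with 11 and 5 false calls. For transcripts the shares were 0.5% and 13%. Only 200 features changed in each simulated set, whereas 11.7% of transcripts rose and 23.5% fell in the real WT response. The adjusted threshold depends on how many features change, so these shares may not hold for the real data. An isoform without a call may still have changed.

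The members and gene lists were chosen with earlier results of these data known. Named genes were the members, their isoforms above 1 FPKM, the 2 genes most correlated with each member, and at most 2 rises and 2 falls in the WT response per pathway list. Some genes that this rule names are not reported here. GENCODE M21 models matched 99.1% of the transcripts, and RefSeq promoter windows matched all 7 members. Ratios and shares were computed from FPKM. Figures were drawn with matplotlib 3.10.9 (Python 3.11.15).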

Additional observations from a re-analysis of the deposited data

Results flagged for a closer look

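The NMDA response differed between WT and another genotype, by a test of the difference itself (limma, adjusted p under 0.05), for several members and isoforms, all on the log2 scale and as WT minus the other genotype. Against shPax6 these were Bax (1.20), Bok (1.54), Bcl2l2 (-0.39), Bax-201 (0.95) and Bcl2l1-201 (1.51). Against JNK3 KO they were Bax (1.64), Bak1 (0.79), Bcl2 (-0.93), Bcl2l2 (-0.75), Bax-201 (1.74), Bax-203 (1.32), Bcl2l1-201 (1.19) and Bcl2l1-203 (-3.11). Of all genes, 18.3% were called higher and 31.4% lower against shPax6, and 23.5% and 27.9% against JNK3 KO. For transcripts the shares were 7.15% and 16.7%, and 9.05% and 16.6%. Both sets use the same WT libraries, whose NMDA values carry the trend with transcript length described above. Both Bax differences were lost after length correction (adjusted p = 0.091 and 0.0718). The calls of Bok, Bak1, Bcl2 and, against shPax6, Bcl2l2 were each lost in at least 11 of 23 alternatives. The difference of Bcl2l1-201 against shPax6 and that of Bax-201 against JNK3 KO were called in all 16 alternatives.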

How the results depend on the processing

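Of 16 called gene results, 2 were called in the same direction in all 23 alternatives (the WT rise of Bax, 0.58 to 1.76, and the WT fall of Bcl2l2, -1.40 to -0.26), and 3 of 13 called isoform results in all 16. The number of members called in WT was 3 as TPM and 1 with a log2 limit of 1. In shPax6 it was 0 with the spread of the compared groups alone and 0 with the limit, and under PBS in shPax6 it was 1 as TPM. For WT minus shPax6 it was 1 without a filter, 5 as TPM and 1 with the groups alone, and for WT minus JNK3 KO 2 without a filter, 1 after length correction and 1 with the limit. As TPM, 0 isoforms were called in shPax6.

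Directions turned in the WT response for Bak1 (-0.20 as TPM), Mcl1 (-0.0224 as TPM), Bok (-0.0526 after length correction), Bcl2 (0.43 after length correction), Bcl2l1-202 (-0.50 as TPM) and Bcl2-201 (0.59 after length correction). In JNK3 KO they turned for Bax (0.005 as TPM, 0.036 with quantile normalization, 0.13 after length correction) and Bcl2 (0.10 with quantile normalization). Under PBS they turned for Bcl2l2 in shPax6 (0.0088 with 75th percentile scaling, 0.0925 after length correction), and in JNK3 KO for Bcl2 (0.0517) and Bcl2l2 (0.0008) after length correction and Mcl1 (-0.0202 as TPM, -0.0106 with 75th percentile scaling, -0.0339 with quantile normalization). For WT minus shPax6 they turned for Bcl2 (0.58), Bcl2l2 (0.26), Mcl1 (0.63) and Bcl2-201 (0.61) after length correction, Bcl2l1 (-0.0943 as TPM) and Mcl1 (0.0018 with 75th percentile scaling). For WT minus JNK3 KO they turned for Bcl2 (0.69) and Bcl2-201 (0.84) after length correction, and for Bcl2l1 (-0.24, -0.0538) and Mcl1 (-0.30, -0.11) as TPM and with quantile normalization. The cause was not tested.

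With 1 library left out, members called ranged from 0 to 1 in JNK3 KO, 0 to 2 under PBS in shPax6, 1 to 4 for WT minus shPax6 and 2 to 5 for WT minus JNK3 KO. Isoforms called ranged from 3 to 6 in WT, 0 to 4 in shPax6, 1 to 5 for WT minus shPax6 and 2 to 4 for WT minus JNK3 KO. Values whose sign turned ranged from -0.0913 to 0.41 (Bcl2l1 in shPax6), -0.10 to 0.0755 (Bax in JNK3 KO), -0.0648 to 0.0074 (Bcl2 in JNK3 KO), -0.45 to 0.0457 (Bcl2l1 under PBS in shPax6), -0.077 to 0.0585 (Bcl2l2 under PBS in shPax6) and -0.17 to 0.09 (Mcl1, WT minus shPax6). For isoforms they ranged from -0.31 to 0.45 (Bcl2l1-202 in WT), -0.008 to 0.36 (Bax-203 in shPax6), -1.38 to 0.34 (Bcl2l1-203 in shPax6), -0.0578 to 0.11 (Bax-201 in JNK3 KO), -0.31 to 0.15 (Bax-203 in JNK3 KO), -0.18 to 0.44 (Bcl2l1-203 in JNK3 KO), -0.0945 to 0.0151 (Bcl2-201 in JNK3 KO) and -4.71 to 0.40 (Bcl2l1-208, WT minus shPax6). Bcl2l1-208 in shPax6 ranged from -5.10 to 0 with no turn of sign. The value of 0 compares libraries all listed at 0 FPKM, and the sizes for this isoform depend on the added 0.1. A lone library was assumed to vary like the other groups.

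The difference between replicates 1 and 2 was not shared between groups, with correlations of -0.0973 to 0.0858 over 15 pairs of groups. Whether replicate numbers pair the samples by animal or batch cannot be told from these values. With a replicate block, members called were 5 in WT, 3 in shPax6, 0 in JNK3 KO, 0 in both PBS comparisons, 3 for WT minus shPax6 and 3 for WT minus JNK3 KO, and isoforms 6, 1, 0, 2 and 3.

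Over all genes, 249 were called between JNK3 KO and WT under PBS, against 166 as TPM, 100 after length correction, 152 without a filter, 35 without the intensity trend, 134 with quantile normalization, 153 with the replicate block and 12 with the groups alone. With 1 library left out, that count ranged from 24 to 411, calls after NMDA in JNK3 KO from 528 to 2273 (528 to 726 without a JNK3 KO library, against 1718) and calls under PBS in shPax6 from 1215 to 3352. The groups alone gave 976 of 4967 calls in shPax6 and 887 of 2724 under PBS in shPax6, and length correction 5619 of 8472 for WT minus JNK3 KO. The share of calls that were rises went from 43.5% in WT to 21.4% as TPM, from 63.4% in shPax6 to 44.0% with quantile normalization, from 36.8% to 16.3% as TPM for WT minus shPax6 and from 45.7% to 23.2% as TPM for WT minus JNK3 KO. Length correction gave 53.5% for WT minus shPax6 and moved the median of all genes there by 0.31.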

Other observations

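The BH3-only genes behind the count in shPax6 were looked at after their values were seen. Bbc3, which encodes the activator PUMA, rose from 3.86 and 2.56 FPKM to 9.68 and 7.16 in shPax6 (log2 difference 1.38, limma, adjusted p = 0.0068), and Bcl2l11, which encodes BIM, from 5.08 and 5.24 to 8.56 and 9 (0.76, adjusted p = 0.0037). The response was lower in WT than in shPax6 by 1.24 for Bbc3 (difference -1.24, adjusted p = 0.0324) and by 0.99 for Bcl2l11 (difference -0.99, adjusted p = 0.00301), and these differences were -1.48 and -0.07 after length correction.

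Bak1-201 was listed at exactly 4.6 FPKM in 5 of the 12 libraries. Among 17708 transcripts with at least 4 FPKM in at least 5 libraries it was the 1 with such a repeat, which was noticed after the values were seen.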
